A study of Mus musculus with 6 samples.

Results

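Cytosolic ribosomal proteins are the protein subunits of the ribosome that translates nuclear-encoded mRNAs. Their genes were taken as all symbols of the platform annotation that follow the Rpl, Rplp, Rps or Rpsa naming scheme, without the Rps6k kinases and without pseudogenes named as such. This gave 67 genes of the 22180 with a probe set of their own, 42 of the large subunit and 25 of the small subunit. The naming rule uses no measured value, and a gene with several probe sets was read from the brightest of them. Transcripts were measured on 6 arrays of sorted haematopoietic stem cells (HSC) from C57BL/6J mice. Of these, 3 arrays held CCR2-positive HSC and 3 held CCR2-negative HSC. Each array held 1 pool from the marrow of 20 mice, so that single animals are averaged within a pool. The labels name no genetic change or treatment in either group and do not give the age of the mice.

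The large subunit carries the peptidyl transferase centre and the exit tunnel of the nascent chain, and the small subunit decodes the mRNA. Ribosomal protein mRNAs begin with a terminal oligopyrimidine tract, through which the mTOR pathway and Larp1 control their translation, so that much of their regulation acts on translation and not on the mRNA level measured here. HSC are known for a low rate of protein synthesis, and loss of 1 copy of several of these genes causes Diamond-Blackfan anaemia, a failure of red cell production in humans.

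The promoter windows of 3 genes with the smallest p-values (Rpl5, Rpl37 and Rpl22l1) and of 4 genes with close values in all pools (Rpl28, Rpl38, Rps6 and Rps10) are shown first, so that the start of the transcript can be seen beside the expression values given below. Each window runs from 60 bases before to 25 bases after the RefSeq transcript start of build GRCm38.p6, 5′ to 3′ on the gene's strand. Capitals mark CTTTC on the gene's strand and, on either strand, CGGAAG, the core bound by ETS factors. CTTTC is a core of the pyrimidine tract only where it lies in the transcript. The first 60 bases of a window lie before the annotated start, and the CTTTC of Rpl5 is among them.
Rpl5, chr5:107900468-107900552, plus strand: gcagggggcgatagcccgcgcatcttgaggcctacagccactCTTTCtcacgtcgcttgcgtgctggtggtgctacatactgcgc
Rpl37, chr15:5116553-5116637, plus strand: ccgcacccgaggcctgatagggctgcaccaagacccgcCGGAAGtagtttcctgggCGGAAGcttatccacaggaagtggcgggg
Rpl22l1, chr3:28805448-28805532, plus strand: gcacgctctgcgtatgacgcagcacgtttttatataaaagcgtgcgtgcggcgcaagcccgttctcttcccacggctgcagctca
Rpl28, chr7:4792905-4792989, plus strand: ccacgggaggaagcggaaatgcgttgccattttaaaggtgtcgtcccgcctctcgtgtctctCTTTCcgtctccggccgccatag
Rpl38, chr11:114668520-114668604, plus strand: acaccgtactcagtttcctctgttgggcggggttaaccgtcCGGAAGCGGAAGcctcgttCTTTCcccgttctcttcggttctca
Rps6, chr4:86857343-86857427, minus strand: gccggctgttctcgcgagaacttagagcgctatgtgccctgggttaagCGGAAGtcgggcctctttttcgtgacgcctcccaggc
Rps10, chr17:27635220-27635304, minus strand: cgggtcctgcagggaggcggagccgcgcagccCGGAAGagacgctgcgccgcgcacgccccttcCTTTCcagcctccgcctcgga

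RefSeq promoters were matched by gene number for 52 of the 67 genes. From 20 bases before to 30 bases after a start, CTTTC stood on the gene's strand in 17 of the 52 (32.7%), against 7.66% of the 27025 genes of the promoter table. On the other strand it stood in 6 of the 52 (11.5%), against 7.30% of all genes. Over the 300 bases from 250 before to 50 after the start, CGGAAG stood on the gene's strand in 38.5% of the 52, against 10.7% of all genes, and on the other strand also in 38.5%, against 10.5%. The small subunit had CGGAAG on the gene's strand in 47.6% of 21 promoters, and the large subunit in 32.3% of 31, while CTTTC stood on the gene's strand in 19.0% of the small and 41.9% of the large subunit promoters. CTTTC stood in 6 of the 17 genes whose log2 difference between the groups was at least 0.1 in size (35.3%), and in 11 of the 35 with a smaller one (31.4%). The motifs were chosen after the sequences and the expression values had been seen. A match is a description of the letters, and these shares were not tested.

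The stem cell label and the sort were checked on marker genes. The Ccr2 transcript had a log2 value of 6.70 ± 0.47 in CCR2-positive and 5.91 ± 0.32 in CCR2-negative pools (SD, n = 3 each), a difference of 0.79 with an adjusted limma p of 0.274. Of 8 measured stem cell markers, 8 had a lower mean in the CCR2-positive pools, with list means of 7.60 to 7.90 in CCR2-positive pools and 8.24 to 8.48 in CCR2-negative pools. All 9 erythroid markers had a higher mean, with list means of 9.07 to 9.59 in CCR2-positive and 8.44 to 8.95 in CCR2-negative pools. For monocyte markers (8 of 10 higher) the list means were 6.57 to 7.03 against 6.44 to 6.58, and for neutrophil markers (9 of 10 higher) 5.70 to 6.84 against 5.40 to 6.19, CCR2-positive pools first. Megakaryocyte markers (2 of 4 higher) had list means of 8.13 to 8.70 and 8.08 to 8.60, B cell markers (3 of 5 higher) had 4.94 to 5.15 and 5.01 to 5.08, and T and NK cell markers (5 of 6 higher) 4.63 to 4.78 and 4.53 to 4.65. The values have no true zero, so no marker can be called absent, and the part of these cells in the ribosomal protein values was not tested. In pools of cells, fewer cells of a type and less RNA per cell cannot be told apart. The design calls the pools biological replicates, and nothing given ties a CCR2-positive pool to a CCR2-negative one.

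Most ribosomal protein transcripts differed between CCR2-positive and CCR2-negative pools by less than 0.1 on the log2 scale. The question of the comparison is which transcripts distinguish HSC that carry the chemokine receptor CCR2 from those that lack it. Differences below are mean log2 values of CCR2-positive pools minus those of CCR2-negative pools, with a standard error from limma fitted over all genes. The median difference was -0.0073 over the 42 genes of the large subunit and -0.0126 over the 25 of the small subunit, beside 0.0271 over all genes. Of the large subunit 18 genes were higher and 24 lower in mean, and of the small subunit 11 were higher and 14 lower. The median size of a difference, sign aside, was 0.0468 over the 67 genes and 0.127 over all genes. In 45 of the 67 (67.2%) the difference was smaller than 0.1 in size, against 40.8% of all genes. This share went with the signal of the probe set. With a mean signal over 11 it was 83.9% of 31 ribosomal protein genes and 57.6% of 99 other genes. Under 11 it was 52.8% of 36 ribosomal protein genes and 40.6% of all genes, and under 7 it was 42.1% of 19 ribosomal protein genes. The mean log2 value over the large subunit genes was 9.42, 9.46 and 9.40 in CCR2-positive pools and 9.39, 9.53 and 9.40 in CCR2-negative pools. Over the small subunit genes it was 9.62, 9.58 and 9.64 in CCR2-positive pools and 9.57, 9.71 and 9.58 in CCR2-negative pools. Both sets of pools overlapped. For single genes the median SD between pools of a group was 0.0741 over the ribosomal protein genes and 0.155 over all genes.

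After adjustment over all genes, 0 of the 67 passed a p of 0.05 in limma, as did 0% of all genes, and the smallest adjusted p of a ribosomal protein gene was 0.292. At an unadjusted limma p under 0.05 there was 1 higher gene (Rpl5), against a background of 5.63% of all genes, and there were 2 lower ones (Rpl37 and Rpl22l1), against 6.61%. The split of all genes at this threshold, 1249 higher and 1467 lower, was 1463 and 1227 after a second quantile normalization and 1027 and 1621 with the arrays centred on their median. Together these 3 are 4.48% of the ribosomal protein genes, beside 12.2% of all genes, and all 3 belong to the large subunit. A p that misses the threshold does not show that the groups were alike. The 95% interval of the difference lay wholly between -0.5 and 0.5, that is within 1.41-fold either way, for 34 of 42 large subunit genes and 21 of 25 small subunit genes, together 82.1%. Over all genes 64.9% had so narrow an interval around 0. The plot of differences with their intervals gives all 67 genes.

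**Figure D1:**
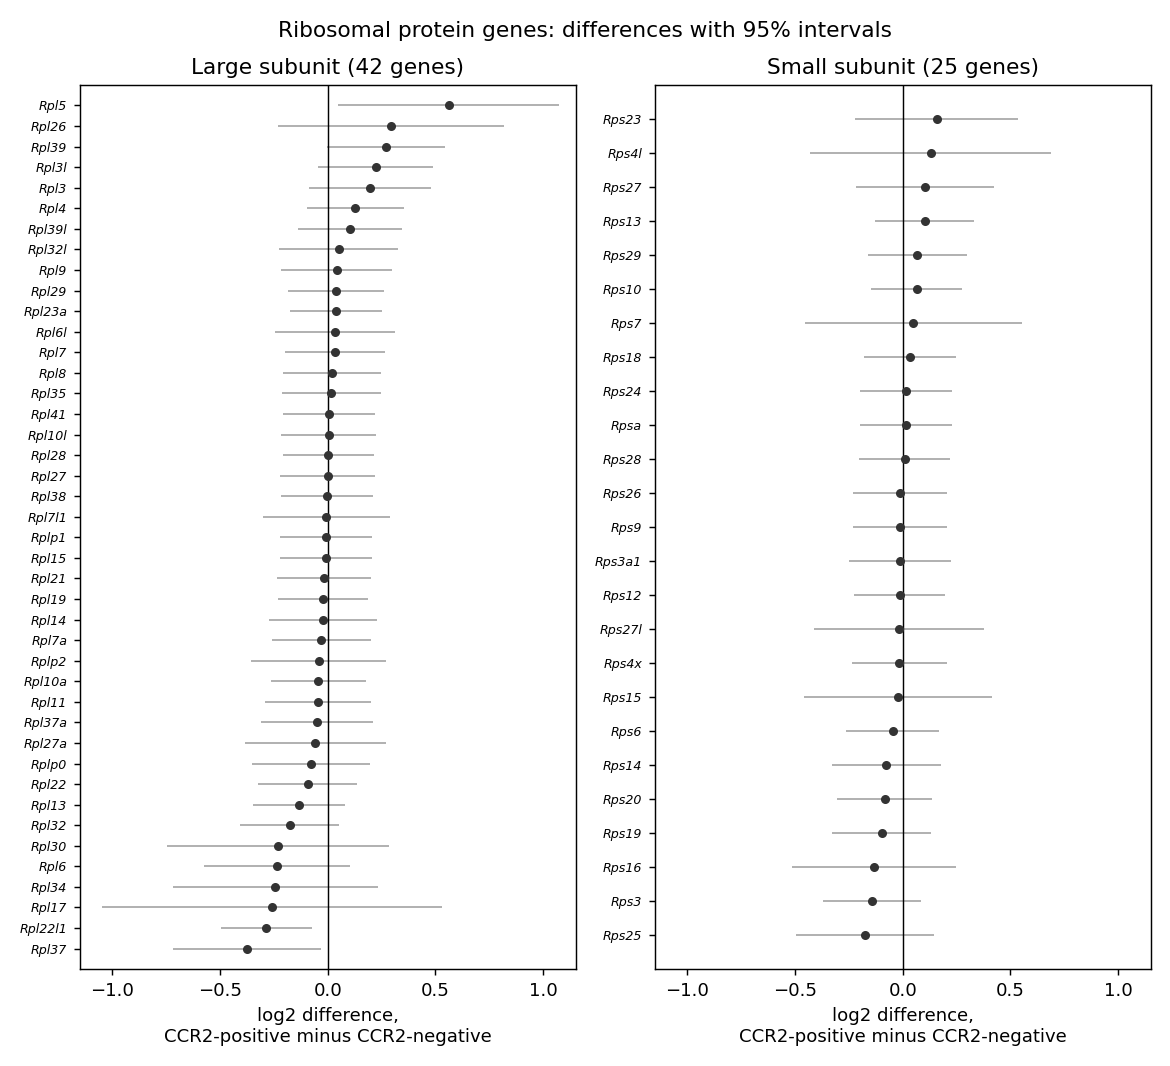
Log2 difference (CCR2-positive minus CCR2-negative pools) of each ribosomal protein gene on the x axis, large subunit (42 genes) left and small subunit (25 genes) right, with points for the differences and bars for 95% limma intervals. Most points lie within 0.1 of 0, and Rpl5 (0.56) and Rpl37 (-0.37) lie farthest out.

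Rpl5, which binds 5S rRNA together with Rpl11 and in that form holds the p53 inhibitor Mdm2, had the largest difference of the 67. Its log2 values were 7.35, 6.87 and 6.59 in CCR2-positive pools, against 6.77, 6.14 and 6.21 in CCR2-negative pools. The groups overlapped, because CCR2-negative replicate 1 lay above CCR2-positive replicate 3. The difference was 0.56 ± 0.22 (SE), a 1.47-fold higher mean, with a 95% interval of 0.05 to 1.07, a limma p of 0.0352 before adjustment and 0.368 after it. It ran from 0.35 (without CCR2-positive replicate 1) to 0.76 (without CCR2-negative replicate 1), and the unadjusted limma p lay over 0.05 without CCR2-positive replicate 1 or 2 or CCR2-negative replicate 2 or 3. In a fit over all probe sets the 95% interval was -0.04 to 1.16, with an unadjusted limma p of 0.0613. Rpl11, its partner in the 5S particle, did not share this pattern. Rpl11 had 6.87, 6.81 and 6.85 in CCR2-positive and 6.998, 6.93 and 6.73 in CCR2-negative pools, a difference of -0.05 ± 0.11 (SE) with overlapping groups.

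Rpl37, a small zinc-binding protein of the large subunit, had the lowest difference. Its log2 values were 6.19, 6.37 and 5.85 in CCR2-positive pools and 6.51, 6.65 and 6.36 in CCR2-negative pools. Here the overlap was slight, with CCR2-positive replicate 2 just above CCR2-negative replicate 3. The difference of -0.37 ± 0.15 (SE) had a 95% interval of -0.72 to -0.03 and an adjusted limma p of 0.372. Without CCR2-positive replicate 3, the lowest pool, it was -0.23, with an unadjusted limma p of 0.116. In a fit over all probe sets the 95% interval was -0.76 to 0.01, with an unadjusted limma p of 0.0544. Rpl37a, a different protein with a like name, differed by -0.05 ± 0.11 (SE).

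Rpl22l1, read from a probe set under the median signal of all genes, had the smallest p of all 67 genes. It is the paralog of Rpl22, and in mice Rpl22 protein holds down the Rpl22l1 mRNA. Its log2 values were 5.44, 5.39 and 5.40 in CCR2-positive pools, against 5.72, 5.66 and 5.71 in CCR2-negative pools. The pools of each group lay within a few hundredths of each other and the groups did not overlap. The difference was -0.28 ± 0.09 (SE), a 1.22-fold lower mean, with a 95% interval of -0.50 to -0.07, a limma p of 0.0146 before adjustment and 0.292 after it. With each pool left out in turn it stayed between -0.30 and -0.27. The limma standard error is moderated towards the spread of all genes and is larger than these pools alone would give (SD of 0.02 in CCR2-positive and 0.03 in CCR2-negative pools). Rpl22 itself had 8.10, 8.16 and 8.001 in CCR2-positive pools and 8.15, 8.25 and 8.13 in CCR2-negative pools. The pools overlapped, and its difference of -0.09 ± 0.10 (SE) had the same sign as that of its paralog.

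**Figure D2:**
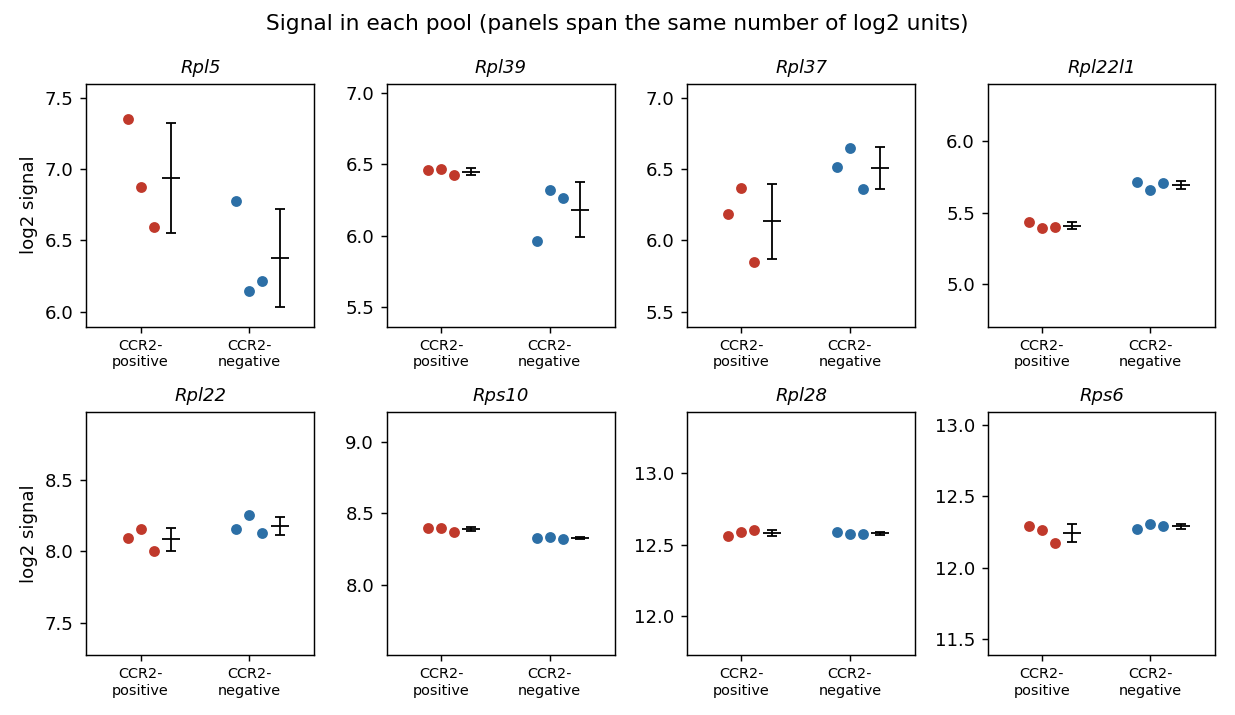
Log2 signal of 8 ribosomal protein genes in each pool, CCR2-positive pools (red) left of CCR2-negative pools (blue), with the mean and SD of each group (n = 3) beside the points in black. All panels span the same number of log2 units, so that Rpl5 and Rpl37 show wide scatter, Rpl22l1 shows 2 tight groups apart, and Rpl28 and Rps6 lie flat.

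Of the large subunit genes next in order of p, Rpl39, a protein of the exit tunnel, had 6.46, 6.47 and 6.42 in CCR2-positive pools and 5.96, 6.32 and 6.26 in CCR2-negative pools. Every CCR2-positive pool was higher, and the difference was 0.27 ± 0.12 (SE, limma adjusted p = 0.413). Rpl3, a protein at the peptidyl transferase centre, differed by 0.20 ± 0.12 (SE) with overlapping pools. Its CCR2-positive values of 10.37, 10.45 and 10.33 stood beside 10.002, 10.16 and 10.40 in CCR2-negative pools. Rpl4, another protein of the exit tunnel, had 12.19, 12.22 and 12.36 in CCR2-positive and 12.13, 12.12 and 12.14 in CCR2-negative pools, a small difference of 0.13 ± 0.10 (SE) with groups that did not overlap. A second Rpl4 probe set with a mean signal of 12.15 gave -0.03 ± 0.09 (SE, fit over all probe sets) with overlapping groups. In the other direction, Rpl32 had 12.10, 12.08 and 12.17 in CCR2-positive pools and 12.28, 12.39 and 12.21 in CCR2-negative pools, with no overlap and a difference of -0.18 ± 0.10 (SE). Rpl13 had 12.35, 12.36 and 12.37 in CCR2-positive pools, against 12.46, 12.51 and 12.53 in CCR2-negative pools. There was no overlap either, and the difference was -0.13 ± 0.09 (SE, limma adjusted p = 0.588). The other Rpl13 probe set, with a mean signal of 12.24, gave -0.03 ± 0.09 (SE, fit over all probe sets) with overlapping groups. Rpl6 differed by -0.24 ± 0.15 (SE), with CCR2-negative replicate 2 among the CCR2-positive values.

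In the small subunit, with 25 genes against 42, the range of differences was narrower, from -0.18 (Rps25) to 0.16 (Rps23), against -0.37 to 0.56 in the large subunit. Both ends of the large subunit range, Rpl37 and Rpl5, came from probe sets with a signal under 7. The median size of a difference was not smaller, with 0.0489 in the small and 0.0455 in the large subunit. The smallest adjusted limma p of the small subunit was 0.599, for Rps3, a protein at the mRNA entry channel. Rps3 had 11.72, 11.72 and 11.63 in CCR2-positive pools and 11.81, 11.92 and 11.76 in CCR2-negative pools. All CCR2-positive pools were lower, and the difference was -0.14 ± 0.10 (SE). Rps20, of the head of the subunit, was lower in every CCR2-positive pool as well, with 7.71, 7.71 and 7.74 in CCR2-positive and 7.78, 7.89 and 7.75 in CCR2-negative pools (difference -0.08 ± 0.10, SE). Rps10 was the one small subunit gene higher in every CCR2-positive pool. It had 8.40, 8.40 and 8.37 in CCR2-positive and 8.33, 8.33 and 8.32 in CCR2-negative pools, a difference of 0.06 ± 0.09 (SE). The remaining genes named by the rule overlapped between groups: Rps25 differed by -0.18 ± 0.14, Rps16 by -0.13 ± 0.17, Rps13 by 0.10 ± 0.10, Rps23 by 0.16 ± 0.17, Rps27 by 0.10 ± 0.14 and Rps29 by 0.07 ± 0.10 (SE each).

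Over both subunits 10 of the 67 genes had groups without overlap. All CCR2-positive pools were higher for 4 of them (Rpl39, Rpl3l, Rpl4 and Rps10), or 5.97%, against 10.8% of all genes. All were lower for 6 (Rpl22l1, Rpl32, Rpl13, Rpl19, Rps3 and Rps20), or 8.96%, against 7.88% of all genes. The first share lies under that of all genes and the second slightly over it, and together the 10 genes make 14.9% of the 67, against 18.6% of all genes. Rpl19 shows how small such a separation can be: it had 12.22, 12.20 and 12.20 in CCR2-positive and 12.23, 12.22 and 12.24 in CCR2-negative pools, a difference of -0.02 ± 0.09 (SE).

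The P stalk recruits the elongation factors to the ribosome, and its genes are Rplp0, Rplp1 and Rplp2. All 3 had a lower mean in CCR2-positive pools, with differences of -0.08 ± 0.12 for Rplp0, -0.01 ± 0.09 for Rplp1 and -0.04 ± 0.14 for Rplp2 (SE each), none larger than its error. A second, dimmer probe set of Rplp0 was lower in every CCR2-positive pool, with 8.45, 8.539 and 8.05 in CCR2-positive and 8.541, 8.67 and 8.55 in CCR2-negative pools (difference -0.24 ± 0.15, SE, limma adjusted p = 0.593 over all probe sets). Rplp1 had 13.09, 13.07 and 13.08 in CCR2-positive pools and 13.13, 13.09 and 13.04 in CCR2-negative pools, which overlapped. The directions of the brightest probe sets turned when 1 pool was left out, so no direction can be given for the stalk. Rps6, the protein that S6 kinases phosphorylate downstream of mTOR, had 12.29, 12.26 and 12.17 in CCR2-positive pools and 12.27, 12.30 and 12.29 in CCR2-negative pools, a difference of -0.05 ± 0.10 (SE). Rpsa, also known as the laminin receptor precursor, had 10.99, 11.002 and 10.97 in CCR2-positive and 10.998, 10.99 and 10.93 in CCR2-negative pools. Its difference of 0.01 ± 0.09 (SE) turned to -0.03 after a second quantile normalization and to -0.01 with the arrays centred on their median.

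Several ribosomal proteins have a paralog with its own tissue pattern. Rpl3l, the copy of striated muscle, had 4.73, 4.72 and 4.99 in CCR2-positive pools and 4.49, 4.59 and 4.69 in CCR2-negative pools, a low signal with no overlap. Its difference was 0.22 ± 0.12 (SE, limma adjusted p = 0.476). Rpl39l, a copy known from testis, differed by 0.10 ± 0.11, and Rpl10l, also a testis copy, by 0.00 ± 0.10 at a signal near the lower end of the array, 3.27 to 3.39 in CCR2-positive and 3.27 to 3.35 in CCR2-negative pools. Rps27l, a p53 target in human cells, differed by -0.02 ± 0.17, while its partner Rps27 differed by 0.10 ± 0.14. For Rps4x, the X-linked copy, the difference was -0.02 ± 0.10, and for Rps4l it was 0.13 ± 0.25, with CCR2-positive replicate 3 at 7.59 above the others. Rpl7 differed by 0.03 ± 0.10 and Rpl7l1 by -0.01 ± 0.13 (SE each). Of the 13 measured genes of these pairs, 8 had a higher and 5 a lower mean in CCR2-positive pools. Rpl22l1 was the only one with an unadjusted limma p under 0.05, which is 7.69% of these genes, against 12.2% of all genes.

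Of the 20 genes listed for Diamond-Blackfan anaemia, 15 were measured. In CCR2-positive pools 9 had a higher and 6 a lower mean, with a median of 0.0153. Apart from Rpl5 none had an unadjusted limma p under 0.05, so that 6.67% of the list did, against 12.2% of all genes. Rps19, the gene most often mutated in this anaemia, had 11.66, 11.54 and 11.60 in CCR2-positive and 11.63, 11.79 and 11.68 in CCR2-negative pools. The groups overlapped, and the difference was -0.10 ± 0.10 (SE). Rpl26 had the second smallest p of the list and a wide spread, with 7.79, 8.39 and 8.71 in CCR2-positive and 7.79, 8.27 and 7.94 in CCR2-negative pools (difference 0.29 ± 0.23, SE, limma adjusted p = 0.640). Rps14, whose loss on 1 chromosome contributes to the anaemia of the human 5q- syndrome, differed by -0.08 ± 0.11 (SE).

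How close a gene's pools lay went with the signal of its probe set. For 31 of the 67 genes the mean signal was over 11, a range that held 130 genes in all, and for 19 it was under 7. Among the 31 bright ones the median size of a difference was 0.0214 and the median SD between pools 0.0484. The 99 other genes with a signal over 11 had a median size of 0.0817 and a median SD of 0.0768. Among the 36 ribosomal protein genes with a signal under 11 the median size was 0.0882, under the 0.127 of all genes in that range, and the median SD was 0.154, beside 0.156 of all genes in that range. These sets were not matched in signal, with a median signal of 6.95 for the 36 and 5.78 for all genes under 11. Among the 19 ribosomal protein genes under 7 the median size was 0.104 and the median SD 0.181. Rpl28 was among the flattest of the bright ones, with 12.56, 12.59 and 12.60 in CCR2-positive and 12.59, 12.57 and 12.58 in CCR2-negative pools. The differences of the 31 bright genes ran from -0.18 (Rpl32) to 0.13 (Rpl4). Rpl38, which in mouse embryos is needed to translate Hox mRNAs, had 12.15, 12.15 and 12.22 in CCR2-positive and 12.17, 12.18 and 12.19 in CCR2-negative pools. The highest deposited value was 13.34, and whether bright probe sets were near saturation was not tested. Rpl17 shows the other extreme: its SD of 0.17 in CCR2-positive and 0.82 in CCR2-negative pools rests on CCR2-negative replicate 2 at 7.91, with the other CCR2-negative pools at 6.56 and 6.41. The signals of different probe sets are not transcript levels and were not ranked as such.

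**Figure D3:**
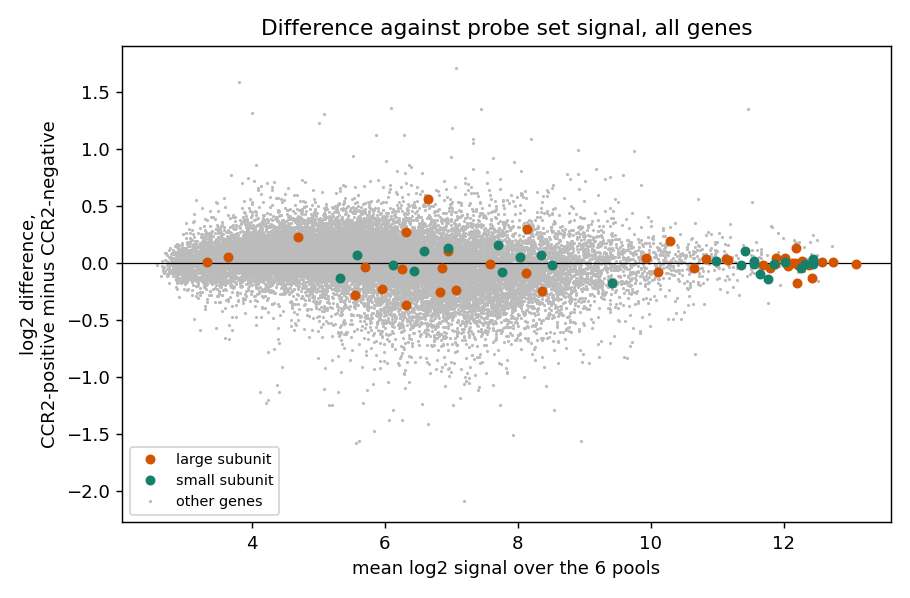
Log2 difference (CCR2-positive minus CCR2-negative pools, y axis) against the mean log2 signal over the 6 pools (x axis) for large subunit genes (orange), small subunit genes (green) and all other genes (grey). Ribosomal protein genes with a signal over 11 lie close to 0, and those under 11 scatter more widely, with a median size of 0.0882 beside 0.127 for all genes under 11. The median signal under 11 was 6.95 for the ribosomal protein genes and 5.78 for all genes, so these sets are not matched.

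CCR2-negative replicate 2 held the highest value of the 6 pools for 26 of the 67 genes (38.8%), against 16.6% of all genes, and the lowest value for 3 (4.48%), against 22.9% of all genes. Both subunits showed it, with 16 of 42 large and 10 of 25 small subunit genes highest in that pool. The share was 38.7% of the genes with a signal over 11 and 38.9% of those under 11. The excess itself was small: from each gene's mean over the 6 pools, the median large subunit gene lay 0.0677 higher in that pool, and the median small subunit gene 0.0385 higher. In the CCR2-positive pools these medians were 0.0005, 0.0128 and -0.0182 for the large and 0.0144, -0.0274 and -0.0059 for the small subunit. In CCR2-negative replicates 1 and 3 they were -0.0306 and -0.0151 for the large and -0.0324 and -0.0235 for the small subunit. Without CCR2-negative replicate 2, 26 of 42 large subunit genes and 15 of 25 small subunit genes had a higher mean in CCR2-positive pools, and the medians turned to 0.0194 and 0.0098. The small subunit median was also above 0, at 0.0074, without CCR2-positive replicate 2. No direction can therefore be given for either subunit as a whole. The genes share each array, so they are not separate observations of a pool, and no test was made of these shares.

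**Figure D4:**
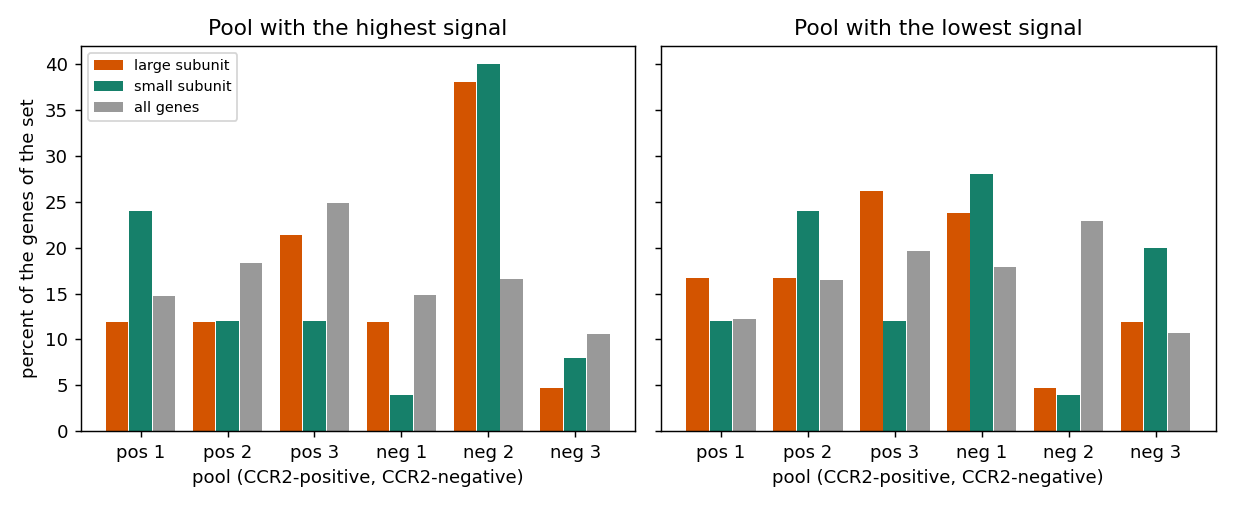
Percent of large subunit genes (orange), small subunit genes (green) and all genes (grey) whose highest value (left) or lowest value (right) of the 6 pools fell in each pool, CCR2-positive pools left of CCR2-negative pools. CCR2-negative replicate 2 holds the highest value of 38.1% of large and 40.0% of small subunit genes, against 16.6% of all genes.

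Where a gene had several probe sets, these often disagreed in sign. Of the 25 genes with more than 1 probe set, 14 had differences on both sides of 0, although only 4 spanned more than 0.2. Rpl41, the shortest of the ribosomal proteins, had 5 probe sets. The brightest gave 12.75, 12.72 and 12.79 in CCR2-positive and 12.75, 12.74 and 12.75 in CCR2-negative pools, a difference of 0.01. The dimmest gave 8.77, 8.82 and 8.97 in CCR2-positive and 8.45, 8.72 and 8.02 in CCR2-negative pools, with no overlap and a difference of 0.46 ± 0.19 (SE). Rps19 had -0.10 from its brightest and 0.18 from its dimmest probe set, Rpl27 had 0.00 and 0.26, and Rpl3 had 0.20 and -0.08. Over all 108 probe sets of these genes, fitted among all 41345, 0 passed after adjustment (smallest limma adjusted p = 0.365), and at an unadjusted limma p under 0.05 there was 1 higher, the dimmest of Rpl41, and 1 lower, that of Rpl22l1, against 4.92% and 5.75% of all probe sets. In that fit Rpl5 and Rpl37 did not reach the unadjusted threshold. For 3 genes (Rpl23a, Rps12 and Rps19) several probe sets held identical values. Ribosomal protein genes have many processed pseudogenes with nearly the same sequence, so probe sets cannot always separate a gene from its copies, and single-gene values are uncertain to that extent.

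Other parts of the translation machinery were read from lists. Fau, which encodes a small subunit protein fused to a ubiquitin-like one and lies outside the naming scheme, differed by -0.03 ± 0.10 (SE). Of 13 other mRNAs with an oligopyrimidine tract, 4 had a higher and 9 a lower mean in CCR2-positive pools, with a median of -0.0272. An unadjusted limma p under 0.05 was reached by 0 of them, against 12.2% of all genes. The smallest p-values of that list were those of Vim, which encodes vimentin (-0.20 ± 0.12), and Eif3h, a subunit of an initiation factor (-0.14 ± 0.12, SE each).

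The 71 mitochondrial ribosomal protein genes split evenly, with 35 higher and 36 lower in mean and a median of -0.0003. At an unadjusted limma p under 0.05 there was 1 in each direction, together 2.82% of the list, against 12.2% of all genes. Mrpl39 had 8.55, 8.57 and 8.17 in CCR2-positive and 8.88, 9.01 and 8.72 in CCR2-negative pools, with no overlap (difference -0.44 ± 0.14, SE, limma adjusted p = 0.283). Mrps27 differed by 0.45 ± 0.17 (SE, limma adjusted p = 0.332), with a single overlap between the groups. As for the cytosolic genes, CCR2-negative replicate 2 was often the highest pool, for 37 of the 71 (52.1%), against 16.6% of all genes. CCR2-positive replicate 2 was highest for 20 (28.2%), against 18.3% of all genes. The cytosolic genes did not share this second excess, with 11.9% highest in CCR2-positive replicate 2.

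Of 49 genes with an Eif symbol, which include binding proteins and kinases, 24 were higher and 25 lower in mean, and 3 in each direction had an unadjusted limma p under 0.05, together 12.2% of the list and likewise 12.2% of all genes. Eif4ebp2, a repressor of cap-dependent translation that mTOR inactivates, had 10.11, 10.29 and 10.15 in CCR2-positive and 9.82, 9.88 and 9.75 in CCR2-negative pools. No pools overlapped, and the difference was 0.37 ± 0.10 (SE, limma adjusted p = 0.243). Eif4e1b, a relative of the cap-binding protein read from a probe set under the median signal of all genes, differed by 0.43 ± 0.12 (SE). Of the 14 measured regulators (mTOR pathway, Larp1, Myc and partners), Eif4ebp2 was the 1 higher and Rps6kb2, an S6 kinase, the 1 lower gene at that unadjusted threshold, 14.3% of this short list. Rps6kb2 had 7.23, 7.52 and 6.96 in CCR2-positive and 7.64, 7.76 and 7.58 in CCR2-negative pools, a difference of -0.42 ± 0.15 (SE, limma adjusted p = 0.318).

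Of the 23 ribosome biogenesis genes, 15 were higher and 8 lower in mean, with a median of 0.0287. At an unadjusted limma p under 0.05 there were 0, against 12.2% of all genes. Nop2, an rRNA methyltransferase, was higher in every CCR2-positive pool and differed by 0.30 ± 0.14, and Ncl, which encodes nucleolin, by 0.22 ± 0.12 (SE each). CCR2-positive replicate 2 was the highest pool for 15 of the 23 (65.2%), against 18.3% of all genes, and CCR2-negative replicate 2 for 7 (30.4%), against 16.6%. Of 11 measured genes of the p53 list, 4 were higher and 7 lower in mean. Only 1 of them, Sesn2, had an unadjusted limma p under 0.05, which is 9.09% of the list, against 12.2% of all genes. Sesn2, a stress-induced inhibitor of mTOR complex 1, had 5.40, 5.47 and 5.28 in CCR2-positive and 4.94, 5.09 and 5.03 in CCR2-negative pools, with no overlap (difference 0.37 ± 0.10, SE, limma adjusted p = 0.243). The Sesn2 probe set lay under the median signal of all genes. Trp53inp1, a p53 target, differed by -0.34 ± 0.20 (SE).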

How the data were processed

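The 6 arrays held biotin-labelled material amplified from 5 ng of total RNA per pool. The authors deposited 1 table of log2 values for 41345 probe sets, made with RMA per the submitters' processing notes; the version is not given in the sources used here. RMA equalises the arrays' distributions, so values are relative to the other genes of an array. Array medians were 5.48 to 5.58. Signal over background is unknown, and the number of arrays limits the precision.

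Probe sets were named from the platform annotation: 23521 had 1 gene, 1814 several (left unnamed) and 16010 none listed. The brightest probe set of each gene was used, giving 22180 genes, and all 67 ribosomal protein genes were matched to RefSeq by gene number. The groups were compared with limma 3.58.1 in R 4.3.3 (lmFit, eBayes, no covariate), with Benjamini-Hochberg adjustment over all genes at a threshold of 0.05. The fit was tested on simulated data with shifts larger than any difference of a ribosomal protein gene. Those simulations therefore do not show how well differences of the size reported here would be found. Lists were described by counts and medians, with no test of a list. The ribosomal protein genes and the lists were chosen with earlier results of these data known.

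Named genes are Ccr2, the 5 ribosomal protein genes with the smallest p per subunit and direction, the P stalk, Rpsa, Rps6, the paralog pairs and the 2 with the smallest p of each other list. Rpl11, Rpl17, Rpl19, Rpl28, Rpl37a, Rpl38, Rpl41, Rpl27 and Rps14 were singled out after their values were seen. Listed genes without a probe set of their own were not analysed here. The bounds on signal and on interval width, the tally of the highest pool and the promoter motifs were likewise chosen after values were seen. Other settings tried were the removal of probe sets under the 25th percentile or the median, renewed quantile normalization, centring of arrays on the median, a replicate block, trend and robust moderation, averaging of probe sets per gene and omission of single pools. Use of the dimmest probe set per gene was added after the data were seen.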

Additional observations from a re-analysis of the deposited data

How the results depend on the processing

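With all 6 pools, 0 genes passed an adjusted limma p of 0.05 under any alternative, while 2716 had an unadjusted limma p under 0.05; with 1 pool left out the count was 0 to 2 (2 without CCR2-positive replicate 1), none a ribosomal protein gene. The large subunit median was -0.0208 (without CCR2-negative replicate 1) to 0.0194 (without CCR2-negative replicate 2), and the small subunit median -0.0128 to 0.0098. The small subunit median was 0.0064 with the mean of the probe sets of a gene and moved to 0.0378 with the dimmest, and its cause was not tested. Median centring gave -0.0308 and -0.0361, beside 0.0036 over all genes.

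At an unadjusted limma p under 0.05 there were 1 higher and 2 lower ribosomal protein genes. A second quantile normalization gave 2 higher and 1 lower, and the dimmest probe sets gave 2 higher. Without probe sets under the median 1 was lower, as Rpl22l1 is then not tested. Trend and robust settings gave 3 lower, with Rpl32 added. As each pool was left out, 0 to 1 were higher and 1 to 3 lower.

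With the replicate block 0 genes passed (limma, smallest adjusted p = 0.0618) and the block left 1 higher and 2 lower ribosomal protein genes at an unadjusted limma p under 0.05. Same-numbered pools deviated together at r = 0.0348, 0.0892 and 0.0447 over genes, and not every pool correlated best with its own number, so the numbers were not taken as pairs.

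Of 47 single genes tested, 31 kept their direction throughout. After a second quantile normalization Rpsa turned to -0.0287, Rpl7 to -0.0091, Rpl7l1 to 0.0764 and Rps27l to 0.0446. With median centring Rpsa turned to -0.0092 and Rpl10l to -0.0197. With the mean of the probe sets Rps20 turned to 0.0064 and Rpl7 to -0.0260. With the dimmest probe set Rpl3 turned to -0.0782, Rpl4 to -0.0261, Rps19 to 0.178, Rps20 to 0.0965, Rplp1 to 0.0047 and Rpl7 to -0.0844. With 1 pool left out the sign turned within -0.0308 to 0.0326 for Rpl10l, -0.0199 to 0.0806 for Rpl7, -0.119 to 0.0705 for Rpl7l1, -0.130 to 0.0101 for Rplp0, -0.0338 to 0.0137 for Rplp1, -0.128 to 0.0718 for Rplp2, -0.252 to 0.0128 for Rps16, -0.0473 to 0.181 for Rps27, -0.114 to 0.180 for Rps27l, -0.161 to 0.336 for Rps4l, -0.0483 to 0.0062 for Rps4x and -0.0062 to 0.0266 for Rpsa. The causes were not tested.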

Other observations

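A further 57 probe sets carried the symbol of a ribosomal protein gene together with other genes or pseudogenes, among them host genes of small nucleolar RNAs, and were not used. Their differences ran from -1.11 to 0.78 with a median of -0.07 (CCR2-positive minus CCR2-negative, log2), and they cannot be assigned to 1 gene. In the limma fit over all probe sets 0 of them passed after adjustment, and at an unadjusted limma p under 0.05 there were 1 higher and 7 lower, against 4.92% and 5.75% of all probe sets.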
